A study of Homo sapiens with 6 samples.

Results

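The SLC25 family comprises the mitochondrial carriers, and its members were taken here by name: every gene whose symbol is SLC25A followed by a number, plus UCP2, MTCH1 and MTCH2, which belong to the same family under other names. Of 17211 genes listed for the 6 libraries, 44 were members; SLC25A2, SLC25A31, SLC25A41, SLC25A47, SLC25A48, SLC25A52 and SLC25A53 were not analysed here. RNA-seq of polyadenylated RNA was made from CAOV2, a human ovarian cancer cell line by its labels, though the sample titles call the cells primary. The siYAP group (3 libraries) was transfected with an siRNA reagent against YAP, the product of YAP1, and the siNT group (3 libraries) with a non-targeting siRNA from another supplier, so that loss of YAP and the reagent itself cannot be told apart. Both groups otherwise shared 1 protocol: 100 pmol of siRNA with 6 µL of lipid reagent for 2 days, DMEM with serum, and collection on day 3. The labels call the libraries biological replicates without saying whether the cultures were separate. A p-value here therefore sets a group difference against the spread among these libraries only, which need not be that among separate cultures.

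Mitochondrial carriers are small proteins of the inner mitochondrial membrane that move nucleotides, phosphate, carboxylates, amino acids and cofactors between the cytosol and the matrix, most of them by exchanging 1 substrate for another. They link glycolysis, oxidative phosphorylation, lipid synthesis and amino acid metabolism across a membrane that is otherwise closed to these molecules. A few relatives sit elsewhere, in the outer mitochondrial membrane or in the peroxisome. YAP is a transcriptional co-activator that is restrained by the Hippo kinases and binds DNA through TEAD factors.

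Values are normalized counts, which are reads per gene divided by a size factor for the library. Each library held between 25478595 and 31790340 reads over the listed genes. YAP1 (ENSG00000137693, chr11:102110461-102233423; coordinates throughout are those of GENCODE 29 on GRCh38) had 278, 327 and 294 normalized counts in the siYAP libraries, against 6221, 5801 and 5955 in the siNT libraries, a siYAP mean of 5.00% of the siNT mean (log2 fold change -4.32, SE 0.059, limma adjusted p = 1e-22). Keratin genes of epithelial cells were abundant, and the 8 epithelial markers summed to between 80487 and 87218 in siYAP and between 103656 and 112607 in siNT. KRT7, KRT18 and KRT19 fell (log2 fold changes -0.97, -0.68 and -0.29), EPCAM, CDH1 and CLDN7 rose (0.74, 0.93 and 1.09), and KRT8 and CLDN4 were not called. Of the ovarian carcinoma markers, PAX8, MUC16, MSLN and FOLR1 had at most 44.9 normalized counts in any library, and MECOM had 434, 464 and 500.3 in siYAP, against 903, 862 and 911 in siNT. The 5 listed fibroblast markers summed to between 13064 and 13559 in siYAP and between 4592 and 5331 in siNT, mostly COL3A1 and LUM. COL1A2 was at most 1.81 in siYAP and at most 15.7 in siNT. COL3A1, LUM and PDGFRB were called higher, and COL1A1 and COL1A2 lower. The 4 listed immune markers summed to between 143 and 160 in siYAP and between 198 and 214 in siNT. CD79A, LYZ and CD68 were called lower and CD14 higher, while PTPRC, CD3E and HLA-DRA were not analysed here. ESAM, the 1 listed endothelial marker, was called lower, with 1338, 1288 and 1261 normalized counts in siYAP, against 1673, 1774 and 1873 in siNT. The part of these markers in the results below was not tested, and fewer cells of a type and less RNA per cell cannot be told apart.

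After YAP silencing the carriers changed in both directions and by small amounts, and their summed normalized counts did not differ beyond the spread, while their share of all listed counts was higher in siYAP, with no overlap. A gene is called where the Benjamini-Hochberg adjusted p from limma is under 0.05. By this rule 28 of the 44 carriers were called, 16 higher and 12 lower in siYAP. Over all 17200 genes tested 56.8% were called, 28.6% higher and 28.1% lower, so that the carriers, at 63.6% called, were near this background. With libraries scaled to equal totals instead, 20 carriers were called higher and 8 lower, which moves the share of higher calls to 71.4% from 57.1% for the carriers and to 62.1% from 50.4% for all genes. The siYAP and siNT libraries did not overlap for 31 carriers (70.5%), 16 higher and 15 lower, against 61.5% of all genes. On the recovered reads edgeR called 27 carriers (61.1% of all genes it tested) and DESeq2 24 (51.0% of all genes).

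Few of the changes were large. Of the 28 called carriers, 25 (89.3%) differed by less than 1.5-fold, against 64.2% of all called genes, and 0 differed by 2-fold or more, against 15.6% of all called genes. The genes were not matched to the carriers for abundance. A mean of at least 20 normalized counts was reached by 43 of 44 carriers and by 14129 of 17211 genes, and its part in these sizes was not tested. The median size of the log2 fold change was 0.21 over the carriers and 0.30 over all listed genes, and the median signed values were 0.03 and 0.00. An absolute log2 fold change of at least 0.5 was reached by 6 called carriers (13.6%), against 24.6% of all genes: SLC25A45, SLC25A27, SLC25A43 and SLC25A1 rose (15.2% of all genes did), and SLC25A24 and SLC25A17 fell (9.41% of all genes did).

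**Figure D1:**
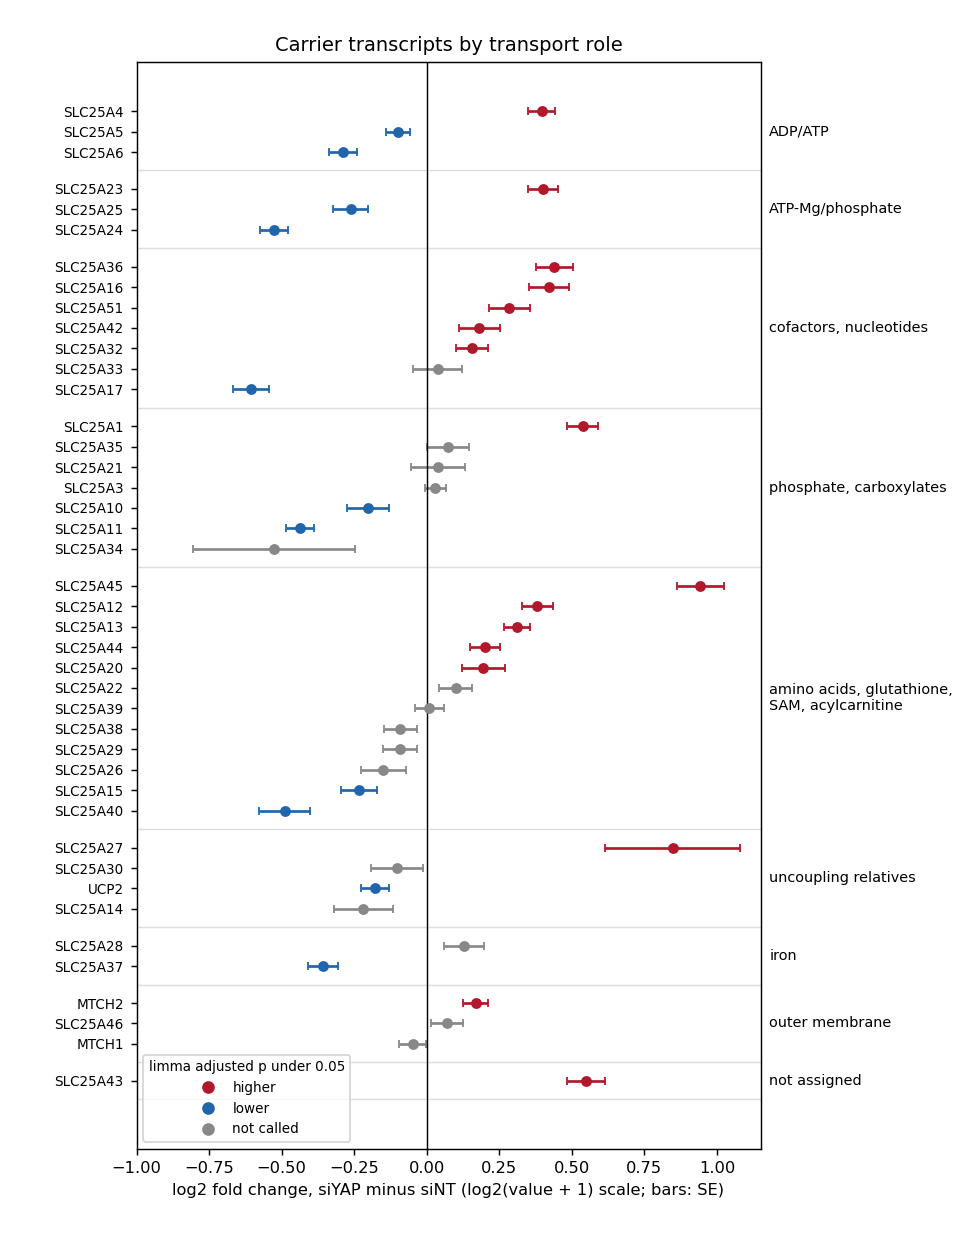
Log2 fold change of each carrier (x axis, siYAP minus siNT, on the log2(value + 1) scale; bars are SE) by transport role (y axis); 2 carriers, SLC25A18 near the floor among them, are not drawn. Red points were called higher and blue points lower by limma, and most of them lie within 0.5 of zero on either side.

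Promoters are shown for carriers that rose or fell, since YAP acts on promoters and enhancers through TEAD factors. They come from RefSeq on GRCh38.p14, which held 38 of the 44 carriers and, of the carriers named here, none for SLC25A16, SLC25A30, SLC25A32, SLC25A35 or SLC25A37, and each runs from 250 bases before the annotated start to 50 bases after it, 5′ to 3′. Capitals mark matches, on either strand, to CATTCC (the TEAD element), GCGCA, any base and then GCGC (the NRF1 element, bound by a regulator of nuclear genes for mitochondrial proteins), CACGTG (the E-box) or AAGGTCA (a nuclear receptor half-site). The first 5 are all the carriers that rose with a match in the window, and the other 9 that rose with a promoter held none. The last 2 were chosen differently, as the carriers with the largest called falls; SLC25A11, which fell and held a match, is not shown. SLC25A36 lies at chr3:140941586-140941885 (plus strand), SLC25A13 at chr7:96322049-96322348 (minus strand), SLC25A51 at chr9:37904078-37904377 (minus strand), MTCH2 at chr11:47642510-47642809 (minus strand), SLC25A23 at chr19:6459743-6460042 (minus strand), SLC25A24 at chr1:108200294-108200593 (minus strand) and SLC25A17 at chr22:40819297-40819596 (minus strand).
SLC25A36: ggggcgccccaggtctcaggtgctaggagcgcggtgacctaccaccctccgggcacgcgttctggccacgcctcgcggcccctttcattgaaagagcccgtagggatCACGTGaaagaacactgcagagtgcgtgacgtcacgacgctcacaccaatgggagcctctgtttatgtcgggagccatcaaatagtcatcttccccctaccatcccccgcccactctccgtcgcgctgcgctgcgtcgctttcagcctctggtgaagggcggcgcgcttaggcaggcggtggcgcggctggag
SLC25A13: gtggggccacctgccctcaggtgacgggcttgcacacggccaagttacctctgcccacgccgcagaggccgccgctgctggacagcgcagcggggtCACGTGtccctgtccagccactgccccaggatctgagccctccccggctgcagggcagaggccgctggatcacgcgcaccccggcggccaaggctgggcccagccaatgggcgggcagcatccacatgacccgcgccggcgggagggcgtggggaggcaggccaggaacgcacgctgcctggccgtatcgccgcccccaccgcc
SLC25A51: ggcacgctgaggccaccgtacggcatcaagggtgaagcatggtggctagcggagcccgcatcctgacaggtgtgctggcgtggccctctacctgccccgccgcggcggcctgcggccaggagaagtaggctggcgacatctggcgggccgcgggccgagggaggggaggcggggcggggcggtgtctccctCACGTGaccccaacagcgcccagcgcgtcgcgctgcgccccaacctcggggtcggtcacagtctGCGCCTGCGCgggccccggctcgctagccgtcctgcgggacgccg
MTCH2: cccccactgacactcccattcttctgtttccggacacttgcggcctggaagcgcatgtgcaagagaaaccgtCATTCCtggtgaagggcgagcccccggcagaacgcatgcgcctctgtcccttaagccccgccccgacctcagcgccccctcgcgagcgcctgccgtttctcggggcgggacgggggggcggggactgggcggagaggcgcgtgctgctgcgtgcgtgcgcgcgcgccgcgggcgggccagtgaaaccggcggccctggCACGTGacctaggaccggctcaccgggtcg
SLC25A23: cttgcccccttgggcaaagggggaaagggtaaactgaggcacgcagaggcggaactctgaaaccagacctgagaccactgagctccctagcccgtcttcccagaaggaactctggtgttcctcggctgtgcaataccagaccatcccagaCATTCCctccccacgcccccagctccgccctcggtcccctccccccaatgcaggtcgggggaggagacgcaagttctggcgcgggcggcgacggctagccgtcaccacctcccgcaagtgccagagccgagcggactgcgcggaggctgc
SLC25A24: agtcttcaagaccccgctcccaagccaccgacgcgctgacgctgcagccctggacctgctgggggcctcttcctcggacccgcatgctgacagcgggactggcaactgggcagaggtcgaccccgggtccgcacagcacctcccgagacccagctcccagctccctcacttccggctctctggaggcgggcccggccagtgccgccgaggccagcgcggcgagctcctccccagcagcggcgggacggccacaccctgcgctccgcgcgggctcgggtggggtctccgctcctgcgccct
SLC25A17: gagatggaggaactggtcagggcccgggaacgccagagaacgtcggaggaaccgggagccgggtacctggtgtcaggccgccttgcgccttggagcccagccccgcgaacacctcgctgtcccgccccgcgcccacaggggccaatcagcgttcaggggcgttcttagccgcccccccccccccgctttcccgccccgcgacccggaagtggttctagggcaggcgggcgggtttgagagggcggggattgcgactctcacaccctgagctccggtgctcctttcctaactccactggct

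The E-box was present in the windows of SLC25A36, SLC25A13, SLC25A51 and MTCH2, which were 4 of the 14 carriers called higher with a promoter, and in 0 of the 10 called lower. It was also present in 4 carriers that were not called, MTCH1, SLC25A33, SLC25A38 and SLC25A46, making 8 of 38 carriers (21.1%), against 7.4% of 27305 RefSeq promoters of the same length. CATTCC was present in 3 of 38 carriers (7.9%), MTCH2, SLC25A23 and SLC25A28, against 14.0% of all promoters. The NRF1 element was present in SLC25A51, SLC25A11 and SLC25A3 (7.9%, against 6.3%), and AAGGTCA in SLC25A34 (2.6%, against 4.0%). No match overlapped another in a carrier promoter. The 27305 promoters were not limited to genes listed for these libraries, nor matched to the carriers for abundance. No test was made of these shares, and a match describes the letters and not binding. The windows of SLC25A24 and SLC25A17 held none of the 4 motifs.

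Related carriers did not move as a block. Every role with at least 3 listed members, the outer membrane members excepted, held at least 1 carrier called higher and 1 called lower. With equal totals the uncoupling proteins and relatives held 1 called higher and 0 lower. Over all genes 28.6% were called higher and 28.1% lower, which is the background for each role below. Sets of genes outside the family were not compared in this way. The roles below were assigned from textbook substrates.

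Among the exchangers of ADP and ATP, which export the ATP made in the matrix, SLC25A4 rose, while SLC25A5 and SLC25A6, both more abundant per kilobase, fell. SLC25A4 (ENSG00000151729, chr4:185143241-185150382), the form known for heart and skeletal muscle, had 2594, 2614 and 2519.5 normalized counts in the siYAP libraries, against 1986, 1977 and 1908 in the siNT libraries (log2 fold change 0.40, SE 0.046, limma adjusted p = 2.02e-07). The groups did not overlap, and the siYAP mean was 132% of the siNT mean. SLC25A6 (ENSG00000169100, chrX:1386152-1392724), a form found in most tissues, had 9714, 9175 and 8777 normalized counts in the siYAP libraries, against 10507, 11702 and 11597 in the siNT libraries (log2 fold change -0.29, SE 0.048, limma adjusted p = 2.28e-05). Each siYAP library was below each siNT library. SLC25A5 (ENSG00000005022, chrX:119468400-119471319), the form known for dividing cells, had 10351, 10178 and 9739.6 normalized counts in the siYAP libraries, against 10581, 10814 and 10995 in the siNT libraries (log2 fold change -0.10, SE 0.041, limma adjusted p = 0.0461). The groups did not overlap and the siYAP mean was 93.5% of the siNT mean, but the call was lost without siYAP replicate 2 or 3 and without siNT replicate 2 or 3 (adjusted p between 0.101 and 0.197). With equal totals its log2 fold change was -0.01. SLC25A5 and SLC25A6 have 9 and 6 annotated pseudogenes, so reads of near-identical copies may be split between them. Other carriers have annotated pseudogenes too, among them SLC25A1 and SLC25A15 with 5 each and SLC25A51 with 3. Per kilobase of transcript the 3 exchangers together summed to 12972 ± 478 in siYAP and 14381 ± 462 in siNT (SD, n = 3 each). By an exact two-sided permutation test p was 0.1, the smallest that 3 against 3 libraries allow. This sum depends on the scaling between libraries. It was not computed with equal totals, where 1 of the 3 exchangers was called higher and 1 lower.

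The calcium-regulated exchangers of ATP-Mg for phosphate, which set the size of the adenine nucleotide pool in the matrix, split the same way. SLC25A24 (ENSG00000085491, chr1:108134036-108200849) had 3184, 3120.0 and 3276 normalized counts in the siYAP libraries, against 4889, 4339 and 4570.2 in the siNT libraries (log2 fold change -0.52, SE 0.048, limma adjusted p = 5.11e-09). Its siYAP mean was 69.4% of its siNT mean, with no overlap between the groups. SLC25A23 had 2848, 2772 and 2581 normalized counts in the siYAP libraries, against 1989.5, 2183 and 2039.8 in the siNT libraries, so that every siYAP library lay above every siNT library (log2 fold change 0.40, SE 0.052, limma adjusted p = 7.52e-07). SLC25A25 fell by less (log2 fold change -0.26). It shares 665 exon bases with the antisense gene SLC25A25-AS1, which fell too (log2 fold change -0.66). The strand setting of the counting is not given in the sources used here. Of the carriers, 12 share exon bases with a listed gene on the opposite strand. Among them are SLC25A32 (406 bases, with DCAF13), SLC25A11 (244, with RNF167) and SLC25A12 (181, with METAP1D). These 3 partner genes were not called.

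Carriers of cofactors and of nucleotides other than ADP and ATP included 5 of 8 that rose (28.6% of all genes did), or 3 of 8 without siNT replicate 2. SLC25A17 was among those that fell, and SLC25A33 was not called. SLC25A17 (ENSG00000100372, chr22:40769630-40819399), a peroxisomal carrier of coenzyme A, FAD and related cofactors, had 583, 604 and 576 normalized counts in the siYAP libraries, against 868, 884 and 932 in the siNT libraries (log2 fold change -0.60, SE 0.061, limma adjusted p = 1.96e-08). This was the largest fall among the called carriers, and the 3 libraries of each group lay close together. SLC25A51 (ENSG00000122696, chr9:37879400-37904353), which imports NAD into the matrix, had 648, 559 and 588 normalized counts in the siYAP libraries, against 502, 491 and 479 in the siNT libraries (log2 fold change 0.28, SE 0.071, limma adjusted p = 0.00162). The groups did not overlap. The other rises were those of SLC25A36, a carrier of pyrimidine nucleotides (0.44 on the log2 scale), SLC25A16 (0.42), SLC25A42, a carrier of coenzyme A (0.18), and SLC25A32, a carrier of folate or FAD (0.16). The call of SLC25A32 was lost without siNT replicate 2 (log2 fold change 0.10, adjusted p = 0.161), and that of SLC25A42 without any 1 of 5 libraries (siYAP replicate 1, 2 or 3 and siNT replicate 2 or 3; adjusted p between 0.0611 and 0.0889).

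Of the 7 carriers of phosphate and carboxylates, SLC25A1 rose, SLC25A11 and SLC25A10 fell, and 4 were not called. Over all genes 28.6% were called higher and 28.1% lower. SLC25A1 (ENSG00000100075, chr22:19175575-19178830) exports citrate, from which the cytosol makes acetyl-CoA for lipid synthesis, and had 4245, 4095 and 3894 normalized counts in the siYAP libraries, against 2619.9, 3021 and 2797 in the siNT libraries (log2 fold change 0.54, SE 0.052, limma adjusted p = 1.24e-08). The lowest siYAP library was well above the highest siNT library. SLC25A11 (ENSG00000108528, chr17:4937130-4940251), the oxoglutarate and malate exchanger of the malate-aspartate shuttle, had 2924, 2875 and 2737 normalized counts in the siYAP libraries, against 3666, 3983 and 3914 in the siNT libraries (log2 fold change -0.44, SE 0.048, limma adjusted p = 6.32e-08). Its groups did not overlap. SLC25A10, the dicarboxylate carrier, fell by 0.20 on the log2 scale and lost the call without siYAP replicate 1 or 3 and without siNT replicate 2 (adjusted p between 0.0691 and 0.0722). With equal totals its log2 fold change was -0.12 and it was not called (adjusted p = 0.186). SLC25A3 (ENSG00000075415, chr12:98593591-98606379), which imports the phosphate used for ATP synthesis, had 21529, 20919.8 and 21081 normalized counts in the siYAP libraries, against 21050.4, 20561 and 20606 in the siNT libraries (log2 fold change 0.03, SE 0.037, limma adjusted p = 0.52). The groups overlapped, and the siYAP mean was 102% of the siNT mean; with equal totals it was called higher (log2 fold change 0.12, adjusted p = 0.0086). SLC25A21, SLC25A34 and SLC25A35 overlapped between groups as well; SLC25A34 averaged under 50 normalized counts, and SLC25A35 shares 1293 exon bases with RANGRF, which fell by 0.46 on the log2 scale.

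**Figure D2:**
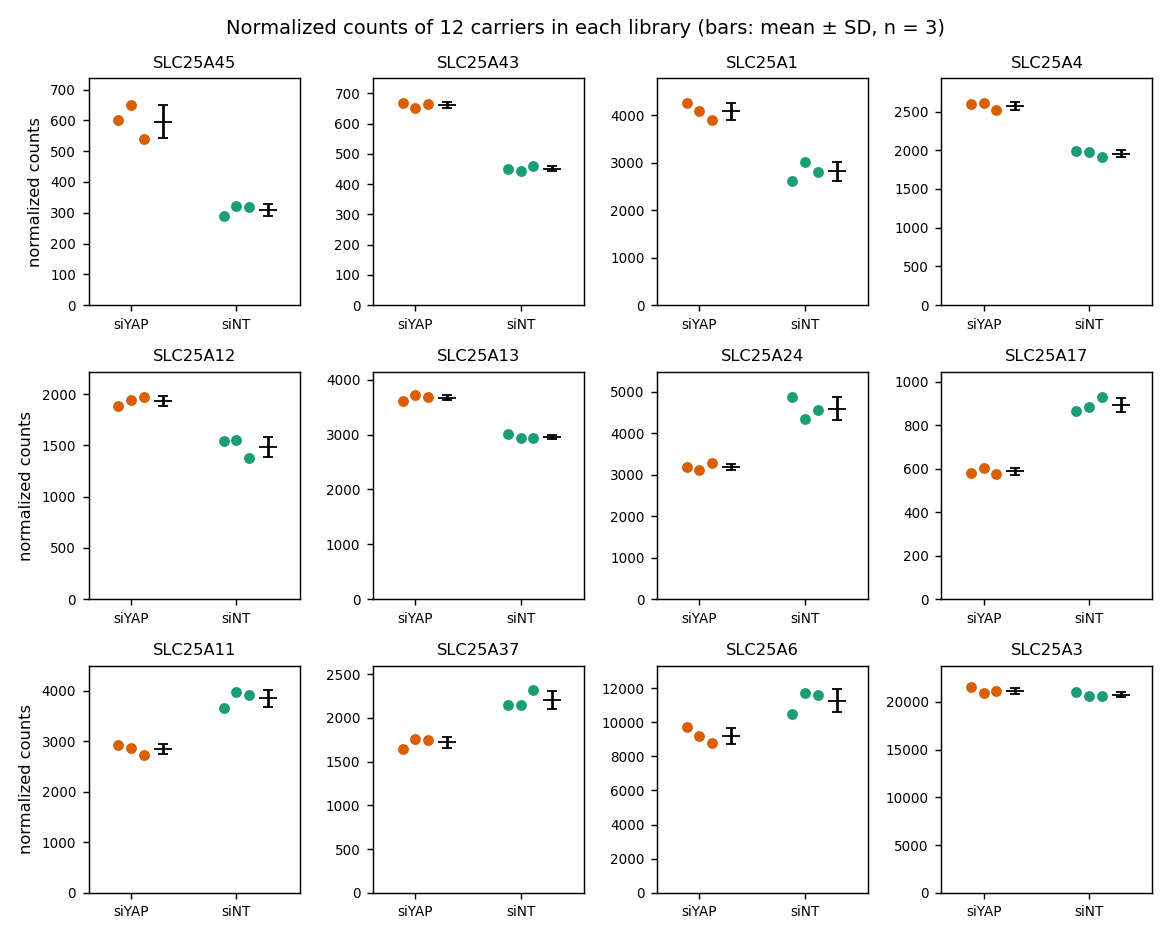
Normalized counts (y axes, from 0) of 12 carriers in each siYAP and siNT library (x axes); points are libraries and bars the mean ± SD of 3. In 11 of the panels the groups do not overlap, and in that of SLC25A3 they do.

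Carriers of amino acids, glutathione, S-adenosylmethionine and acylcarnitine numbered 13, of which 5 rose, 2 fell and 6 were not called. Of all genes 28.6% rose and 28.1% fell by the same rule. SLC25A45 (ENSG00000162241, chr11:65375192-65383701), reported to carry methylated amino acids, had 601, 648 and 539 normalized counts in the siYAP libraries, against 288, 322 and 318 in the siNT libraries (log2 fold change 0.94, SE 0.081, limma adjusted p = 1.54e-09). The siYAP mean was 193% of the siNT mean, the largest rise in the family. SLC25A12 (ENSG00000115840, chr2:171784370-171999859) and SLC25A13 are the aspartate and glutamate exchangers of the malate-aspartate shuttle; SLC25A12 had 1883, 1946 and 1975 normalized counts in the siYAP libraries, against 1540.3, 1548 and 1374 in the siNT libraries (log2 fold change 0.38, SE 0.054, limma adjusted p = 2.85e-06). SLC25A13 (ENSG00000004864, chr7:96120220-96322147) had 3622, 3719 and 3685 normalized counts in the siYAP libraries, against 3009, 2938 and 2938 in the siNT libraries (log2 fold change 0.31, SE 0.044, limma adjusted p = 2.49e-06). Both rose with no overlap between the groups. SLC25A20 (ENSG00000178537, chr3:48856931-48898993), which brings acylcarnitines in for fatty acid oxidation, had 496, 494 and 454 normalized counts in the siYAP libraries, against 396, 438 and 427 in the siNT libraries (log2 fold change 0.19, SE 0.074, limma adjusted p = 0.0292). The groups lay close, and the call was lost without siYAP replicate 1 or 2 and without siNT replicate 1 (adjusted p between 0.0963 and 0.107). SLC25A44, a carrier of branched-chain amino acids, also rose (0.20 on the log2 scale).

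SLC25A39 (ENSG00000013306, chr17:44319625-44324870), which takes glutathione into the matrix, had 5789.7, 5496 and 5201 normalized counts in the siYAP libraries, against 5111, 5700.4 and 5579 in the siNT libraries (log2 fold change 0.01, SE 0.05, limma adjusted p = 0.899), so the groups overlapped. Its relative SLC25A40, much less abundant per kilobase, fell, with 409.6, 409 and 474 normalized counts in the siYAP libraries, against 702, 538 and 582 in the siNT libraries (log2 fold change -0.49, SE 0.088, limma adjusted p = 5.79e-05); it shares 142 exon bases with DBF4, which fell by 0.15 on the log2 scale. SLC25A15, the ornithine carrier of the urea cycle, fell by 0.23 on the log2 scale, and by 0.15 with equal totals (adjusted p = 0.0494). The other 5 not called were the glutamate carriers SLC25A22 and SLC25A18, the S-adenosylmethionine carrier SLC25A26, the basic amino acid carrier SLC25A29 and the glycine carrier SLC25A38. SLC25A26 shares 907 exon bases with LRIG1, which rose by 0.50 on the log2 scale. SLC25A18 was at the floor, with 0.906, 0 and 0.951 normalized counts in the siYAP libraries, against 2.09, 1.07 and 6.04 in the siNT libraries.

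The uncoupling proteins and their relatives, which let protons or metabolites cross the inner membrane, held 1 rise, 1 fall and 2 carriers that were not called. The shares over all genes were 28.6% higher and 28.1% lower. SLC25A27 (ENSG00000153291, chr6:46652915-46678193), also named UCP4, was rare, with 31.7, 46.4 and 34.2 normalized counts in the siYAP libraries, against 20.9, 21.4 and 18.1 in the siNT libraries (log2 fold change 0.85, SE 0.231, limma adjusted p = 0.00338). The lowest siYAP library was above the highest siNT library, at counts where a single read is worth between 0.906 and 1.21 normalized counts. UCP2 (ENSG00000175567, chr11:73974667-73983307) had 3293, 3133 and 3044 normalized counts in the siYAP libraries, against 3395, 3671 and 3654 in the siNT libraries (log2 fold change -0.18, SE 0.048, limma adjusted p = 0.00309). Its groups did not overlap; with equal totals the fall was 0.09 on the log2 scale and not called (adjusted p = 0.102). SLC25A14 and SLC25A30 overlapped between the groups; without siNT replicate 2 SLC25A14 was called lower (log2 fold change -0.30, adjusted p = 0.0213).

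Of the iron carriers, SLC25A37 (ENSG00000147454, chr8:23528805-23575463), known as mitoferrin 1 and for iron supply to haem synthesis in red cell precursors, had 1646, 1762 and 1747 normalized counts in the siYAP libraries, against 2141, 2141 and 2323 in the siNT libraries (log2 fold change -0.36, SE 0.051, limma adjusted p = 3.22e-06). The groups did not overlap. SLC25A28 (ENSG00000155287, chr10:99610522-99620609), mitoferrin 2, had 546, 571 and 528 normalized counts in the siYAP libraries, against 485, 491 and 528 in the siNT libraries (log2 fold change 0.13, SE 0.069, limma adjusted p = 0.116), and siNT replicate 3 lay just above the lowest siYAP library. With equal totals it was called higher (log2 fold change 0.22, adjusted p = 0.0106). In the outer membrane, MTCH2 (ENSG00000109919, chr11:47617315-47642623), which inserts proteins into that membrane, had 6086, 6066 and 6195 normalized counts in the siYAP libraries, against 5591, 5246 and 5485 in the siNT libraries (log2 fold change 0.17, SE 0.043, limma adjusted p = 0.00177). Each siYAP library was above each siNT library, and with equal totals the log2 fold change was 0.26. MTCH1 (ENSG00000137409, chr6:36968141-36986298), its relative, had 5711, 5483 and 5362 normalized counts in the siYAP libraries, against 5408, 5821 and 5904 in the siNT libraries (log2 fold change -0.05, SE 0.046, limma adjusted p = 0.382), with overlap and a log2 fold change of 0.04 with equal totals, and SLC25A46, which takes part in mitochondrial dynamics, was not called either. SLC25A43 (ENSG00000077713, chrX:119399060-119454478), for which no substrate was assigned, had 669, 652 and 664 normalized counts in the siYAP libraries, against 450.3, 445 and 460.4 in the siNT libraries (log2 fold change 0.55, SE 0.065, limma adjusted p = 2.22e-07). Its libraries were tight within each group and far apart between them.

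The level of the family as a whole depended on what it was set against. The 44 carriers summed to 104270 ± 1914 normalized counts in siYAP and 104680 ± 1307 in siNT (SD, n = 3 each; exact permutation test, two-sided, p = 0.8). Per kilobase of transcript the sum was 51222 ± 1137 in siYAP and 51743 ± 842 in siNT (exact permutation test, two-sided, p = 0.7). As a share of all listed counts the carriers held 0.369%, 0.364% and 0.356% in the siYAP libraries, against 0.341%, 0.345% and 0.343% in the siNT libraries. These shares did not overlap (exact permutation test, two-sided, p = 0.1), and the normalized totals they are taken of were lower in siYAP than in siNT.

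Levels per kilobase were concentrated in a few carriers. SLC25A3, SLC25A5 and SLC25A6 together held 49.0%, 48.7% and 48.8% of the per-kilobase sum in the siYAP libraries, against 51.1%, 50.7% and 50.7% in the siNT libraries (exact permutation test, two-sided, p = 0.1). Per kilobase, SLC25A3 had 12620 ± 188 in siYAP and 12360 ± 161 in siNT, and SLC25A5 had 7919 ± 247 in siYAP and 8475 ± 163 in siNT. SLC25A6, at 4472 ± 228 in siYAP and 5465 ± 321 in siNT, was followed by SLC25A39, at 3420 ± 183 in siYAP and 3400 ± 194 in siNT (SD, n = 3 each). The next in siNT were MTCH1, MTCH2, SLC25A11, SLC25A1, UCP2 and SLC25A24, where MTCH2, at 2103 ± 68, and SLC25A11, at 2032 ± 88, did not differ beyond their spread, nor did SLC25A1, at 1707 ± 122, and UCP2, at 1691 ± 73.

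A share within a set of related carriers, taken inside each library, does not depend on the scaling between libraries. Such shares were computed per kilobase for 9 sets, and in 8 of them the groups did not overlap. Of all single genes 61.5% did not overlap either, and no shares were computed for sets outside the family. Each of the 8 sets had p = 0.1 by an exact two-sided permutation test, the smallest possible, and 0.113 after Benjamini-Hochberg adjustment over the 9. The widest shift was among the ATP-Mg and phosphate exchangers, where SLC25A24 made up 41.3, 41.3 and 44.1% in the siYAP libraries, against 57.8, 53.0 and 54.7% in the siNT libraries. SLC25A24 was thus the majority form in 0 of the 3 siYAP libraries and in all 3 siNT libraries, while SLC25A23 made up 46.1, 45.8 and 43.3% in the siYAP libraries, against 29.3, 33.2 and 30.5% in the siNT libraries. Of the mitoferrin pair, SLC25A28 made up 52.4, 51.9 and 50.1% in the siYAP libraries, against 42.9, 43.2 and 43.0% in the siNT libraries. On the transcript lengths used, SLC25A28 was the larger part in each siYAP library and SLC25A37 in each siNT library; on the length of all annotated exons SLC25A28 was the larger part in both groups (59.7% in siYAP and 51.4% in siNT).

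The other shifts were smaller. Of the pyrimidine nucleotide carriers SLC25A33 and SLC25A36, SLC25A33 made up 16.7% ± 1.05 in siYAP and 20.9% ± 2.17 in siNT (SD, n = 3 each). MTCH1 made up 53.8% ± 1.00 in siYAP and 57.5% ± 1.76 in siNT of the MTCH1 and MTCH2 pair. SLC25A10 made up 12.4% ± 0.552 in siYAP and 10.8% ± 0.232 in siNT of the pair with SLC25A11. In the ADP and ATP exchangers SLC25A5 made up 61.1% ± 0.448 in siYAP and 59.0% ± 0.948 in siNT. SLC25A6 made up 34.5% ± 0.553 in siYAP and 38.0% ± 1.06 in siNT. SLC25A4 made up 4.47% ± 0.106 in siYAP and 3.07% ± 0.153 in siNT. The part of SLC25A5 was thus larger, in a sum per kilobase that was smaller on the deposited scaling. That sum was not computed with equal totals. On counts not divided by length the groups overlapped for SLC25A5 (46.1% ± 0.366 in siYAP and 45.0% ± 0.856 in siNT; exact permutation test, two-sided, p = 0.2). SLC25A39 made up 97.0% ± 0.404 in siYAP and 95.7% ± 0.815 in siNT of the glutathione pair, and SLC25A22 almost the whole of the pair with SLC25A18. In that last pair the lack of overlap rests on SLC25A18, which was at the floor. The share of SLC25A12 in the pair with SLC25A13 overlapped between groups (35.7% ± 0.366 in siYAP and 34.6% ± 1.40 in siNT; exact permutation test, two-sided, p = 0.3): both transcripts rose, and no change in their ratio was detectable with 3 libraries a group.

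**Figure D3:**
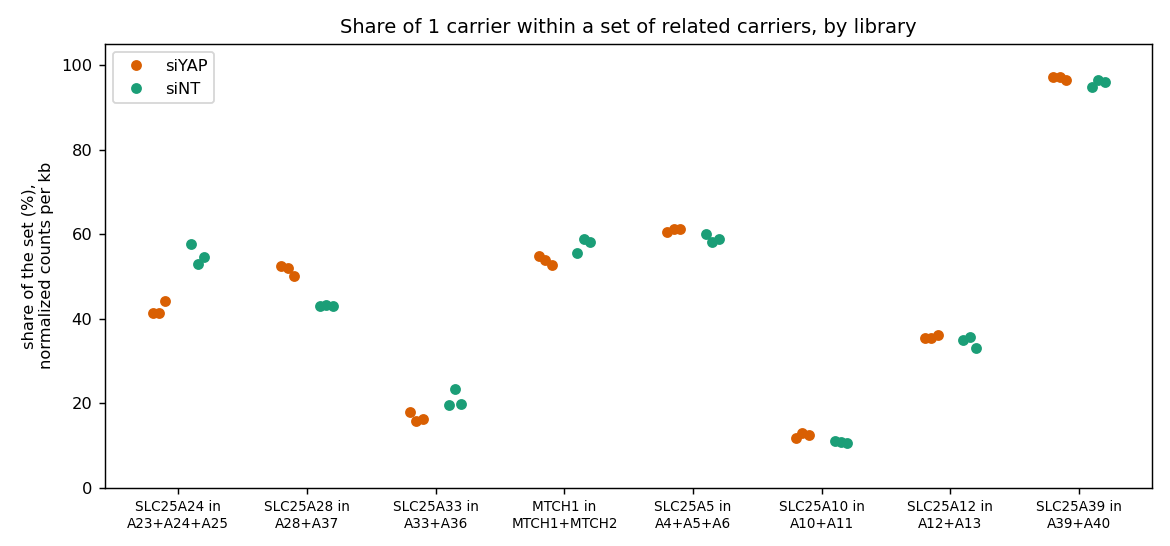
Share of 1 carrier in the per-kilobase sum of a set of related carriers (y axis, percent) in each siYAP and siNT library (points) for 8 of the 9 sets (x axis); the pair of SLC25A22 and SLC25A18 is not drawn. SLC25A24 lies between 41.3% and 44.1% in siYAP and between 53.0% and 57.8% in siNT, while SLC25A12 overlaps between the groups.

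Genes of the machinery that delivers carriers to the inner membrane held 0 called higher, 11 lower and 2 not called of 13, against 28.6% higher and 28.1% lower over all genes, with a median log2 fold change of -0.35. TOMM40, the pore of the outer membrane, had 6299, 5978 and 5708 normalized counts in the siYAP libraries, against 8984, 10033 and 10252 in the siNT libraries (log2 fold change -0.70, SE 0.051, limma adjusted p = 8.64e-11). TIMM10, a chaperone of the space between the membranes, had 1096, 1111 and 1084 normalized counts in the siYAP libraries, against 1657, 1651 and 1587 in the siNT libraries (log2 fold change -0.57, SE 0.051, limma adjusted p = 2.74e-09). The groups did not overlap for either gene. TOMM22, a receptor of the outer membrane, fell by 0.40 on the log2 scale and TOMM20, another receptor, by 0.36; TIMM9 and AGK were not called. Equal totals left 10 called lower and 0 higher, against 3700 lower and 6050 higher of 17200 genes.

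Of 12 markers of mitochondrial content, 1 was called higher, 7 lower and 4 not called (28.6% of all genes were higher and 28.1% lower), with a median log2 fold change of -0.19. The 1 called higher, HSPE1, lost the call without siYAP replicate 2 or 3 and without siNT replicate 2 or 3. PHB2 and PHB1, the prohibitins of the inner membrane, fell by 0.43 and 0.41, and TWNK, the helicase of mitochondrial DNA, by 0.30 on the log2 scale. TOMM20 stands in both lists. The median of the carriers was 0.03 on the same scale; whether these lists differ from the carriers was not tested.

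Mitochondrial transporters outside the family were split, with 6 of 20 called higher, 7 lower and 7 not called (8 higher and 6 lower with equal totals). All genes had 28.6% higher and 28.1% lower, and 6050 higher and 3700 lower of 17200 with equal totals. SFXN5, a sideroflexin, rose by 0.72 and MCUB, the subunit that restrains the calcium uniporter, by 0.59. MCU, the pore of that uniporter, had 1051, 1074 and 1051 normalized counts in the siYAP libraries, against 1679.6, 1467 and 1491 in the siNT libraries (log2 fold change -0.54, SE 0.057, limma adjusted p = 3.86e-08), and MICU2, its calcium-sensing regulator, fell by 0.56 on the log2 scale. MCU and MCUB thus changed in opposite directions, with no overlap between groups for either.

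Among 12 enzymes that act with the carriers in the malate-aspartate and citrate shuttles, 4 were called higher, 2 lower and 6 not called. Over all genes 28.6% were higher and 28.1% lower. With equal totals 7 of the enzymes were called higher and 0 lower, against 6050 higher and 3700 lower of 17200 genes. The 2 called lower, GOT1 and GLUD1, were 0 without siYAP replicate 2, and 1 without siYAP replicate 3 or siNT replicate 3. ME1, the cytosolic malic enzyme, had 1723, 1614 and 1743 normalized counts in the siYAP libraries, against 879.6, 806 and 809.6 in the siNT libraries (log2 fold change 1.03, SE 0.056, limma adjusted p = 9.71e-13). IDH1 and IDH2, the cytosolic and mitochondrial NADP-dependent isocitrate dehydrogenases, rose by 0.70 and 0.65, and MDH1, the cytosolic malate dehydrogenase, by 0.23 on the log2 scale. ACLY, which cleaves the citrate exported by SLC25A1, had 18216, 17562 and 17949.7 normalized counts in the siYAP libraries, against 17281, 17816 and 18092 in the siNT libraries and was not called (log2 fold change 0.01).

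Of 6 genes of the carnitine acyltransferase family, listed here beside the acylcarnitine carrier SLC25A20, 4 rose, against 28.6% of all genes. CPT1A fell and CPT1B was not called. CPT1A, which makes acylcarnitines at the outer membrane, had 7080.1, 6829 and 6822 normalized counts in the siYAP libraries, against 7788, 8129 and 7445 in the siNT libraries (log2 fold change -0.17, SE 0.044, limma adjusted p = 0.0019), and with equal totals it was not called. CROT, the peroxisomal carnitine octanoyltransferase, had 599.9, 592 and 648 normalized counts in the siYAP libraries, against 143, 139 and 152 in the siNT libraries (log2 fold change 2.07, SE 0.084, limma adjusted p = 6.69e-15). This was far outside the range of the carriers. CPT1C rose by 0.99, CRAT, the carnitine acetyltransferase, by 0.47, and CPT2, which acts in the matrix after import, by 0.34 on the log2 scale.

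**Figure D4:**
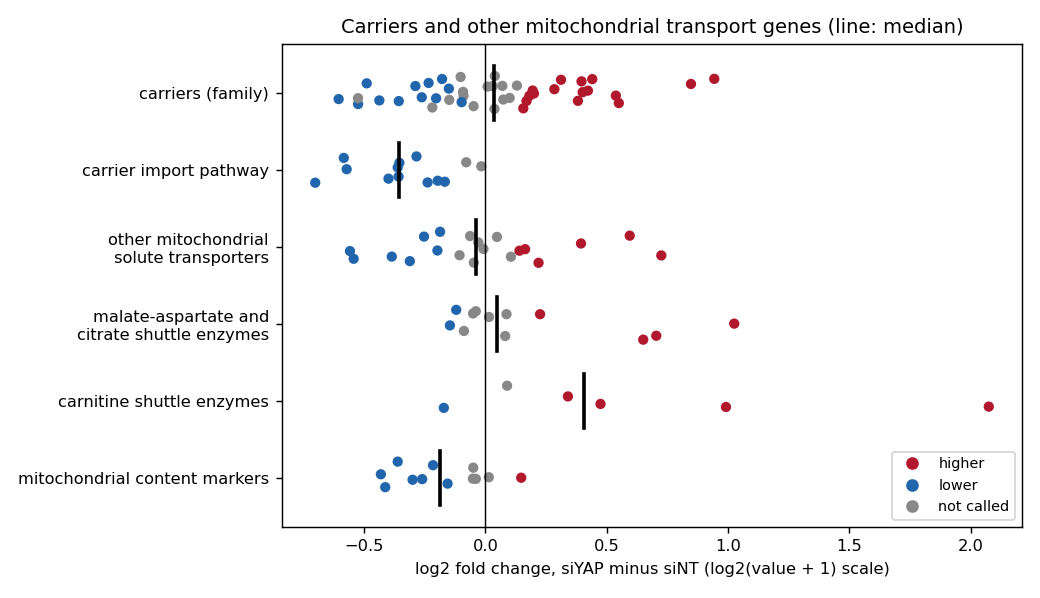
Log2 fold change (x axis, siYAP minus siNT, on the log2(value + 1) scale) of the carriers, without SLC25A18, and of 5 lists of related genes (y axis); points are genes, coloured by the limma call, and vertical lines are medians. The carriers lie on both sides of zero, while 11 of 13 import genes were called lower.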

How the data were processed

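The deposited table holds 1 signal value per gene and library, which is a normalized read count. The submitters' processing notes name FastQC, HISAT2, HTSeq, DESeq2 and 2 builds, hg19 and mm9, without a role or version for any of them, and the strand setting of the counting is not given in the sources used here. Library preparation used a stranded mRNA kit, per the labels' protocols. In each library 100% of the deposited signal values were whole multiples of 1 read within 0.01 of a read, and 0 value columns fell outside the 6 libraries.

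The test was limma 3.58.1 with a variance trend and robust moderation, run in R 4.3.3 on log2(value + 1), and group was the only term. Genes needed 1 normalized count in at least 3 libraries, which 17200 of 17211 had, and Benjamini-Hochberg adjustment ran over all of these. This scale understates changes of low genes. On the recovered reads edgeR 4.0.16 called 61.1% of the genes it tested and DESeq2 1.42.0 called 51.0%. In simulated counts for this comparison (17199 genes tested), limma found 32 of 50 genes set to a 1.2-fold change. It found 43 of 50 at 1.5-fold, 49 of 50 at 2-fold and all 50 at 3-fold, and made 9 false calls. Only these genes were changed, none of them of low mean count, while 56.8% of genes were called in the data. The rates found therefore need not hold for the data.

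Symbols were matched by Ensembl identifier (16743 of 17211 genes). Coordinates and the length of 1 principal transcript per gene came from GENCODE 29 on GRCh38, matched by identifier, and not from the authors' build. Shares and sums were compared by exact two-sided permutation over the 20 splits of 6 libraries.

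The members, roles, gene lists and motifs were chosen with earlier results of these data known. Values in every library are given for YAP1, for called carriers with an absolute log2 fold change of at least 0.5 and for 17 preset carriers; up to 4 called genes per list are named by smallest p. SLC25A23, SLC25A40, SLC25A18, ACLY and CPT1A were given in full after their values were seen, and other carriers are named within counts. Of the carriers, 1 is counted but not reported here by name.

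Alternatives were other scalings, filters, pseudocounts of 0.1 and 5, limma without trend, the 2 count tests, the replicate number as a block and each library left out. No library was a duplicate of another: pairs within a group had a chi-square per degree of freedom between 2.86 and 8.22.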

Additional observations from a re-analysis of the deposited data

How the results depend on the processing

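Over 18 alternatives, 21 of the 28 called carriers kept their call in every one, and no called carrier and no share changed sign. The 4 uncalled carriers that changed sign in some were MTCH1, SLC25A21, SLC25A33 and SLC25A39 (adjusted p between 0.479 and 0.94 there). The called carriers that lost their call in some included SLC25A5 (11 alternatives, adjusted p up to 0.838 with equal totals), SLC25A42 (7, up to 0.0889), SLC25A10 (5, up to 0.186), SLC25A20 (5, up to 0.107), SLC25A32 (2, up to 0.161) and UCP2 (1, 0.102); the cause was not tested. With equal totals SLC25A3, SLC25A22, SLC25A28 and SLC25A46 were gained as higher (log2 fold changes of 0.12, 0.19, 0.22 and 0.16). SLC25A14 was called without siNT replicate 2 (log2 fold change -0.30, adjusted p = 0.0213), SLC25A22 without siNT replicate 3 (0.15, adjusted p = 0.04) and SLC25A34 without siYAP replicate 1 (-0.75, adjusted p = 0.0379). Leaving out 1 library at a time gave between 14 and 16 carriers higher and between 10 and 12 lower. With counts in place of counts per kilobase, the differences in share were 1.14 points for SLC25A5, 5.65 for SLC25A28 and 2.76 for SLC25A39, since longer transcripts weigh more in counts; for SLC25A5 the groups then overlapped (exact permutation test, p = 0.2). The replicate block gave 14 carriers higher and 10 lower, and 4654 genes higher and 4487 lower overall. Libraries with the same number did not deviate together (correlations of -0.171, 0.003 and 0.005). Pairs with unlike numbers had correlations between -0.177 and 0.178, and whether libraries were paired in some other way was not tested. Carriers under 50 normalized counts on average (SLC25A18, SLC25A27 and SLC25A34) are limited by depth.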

Other observations

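The order of the most abundant carriers depended on the length used, an alternative added after the data were seen. Per kilobase of the principal transcript (1678 bases for SLC25A3), SLC25A3 led in siNT with 12360 normalized counts per kilobase, before SLC25A5 with 8475 and SLC25A6 with 5465. Per kilobase of all annotated exons (8896 bases for SLC25A3), SLC25A5 led with 7198, before SLC25A6 with 5207 and SLC25A3 with 2331.

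An earlier search of these data had tied the heptamer TTCTTAA, the heptamer GAGAGGA and the heptamer GATAAAG to lower values, and they were looked for in the annotated 3′ UTRs, where a match is a description only. At least 1 of them was present in 7 of 16 carriers called higher (43.8%), in 4 of 12 called lower (33.3%) and in 4 of 16 not called, against 35.8% of 13294 genes searched and 39.1% of those called lower. SLC25A40 held 3 of them, SLC25A17 and SLC25A37 held 2 each and SLC25A24 held 1. Of those that rose, SLC25A16 held 2, and SLC25A13, SLC25A23, SLC25A27, SLC25A36, SLC25A44 and MTCH2 held 1 each. SLC25A30, which was not called, held 2. The length of the 3′ UTR was not taken into account.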
